A study of Mus musculus with 9 samples.

Results

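The 9 genes of retinoic acid uptake, synthesis, breakdown, binding and response followed here in mouse testis were Stra6, Rdh10, Aldh1a1, Aldh1a2, Cyp26b1, Crabp1, Rara, Rarg and Stra8. They were taken by name, and all 9 of 9 were present among the 31956 genes to which the deposited transcripts were assigned. RNA of whole testes was sequenced from 3 WT, 3 Kpna6 ΔIBB/ΔIBB (ΔIBB in what follows) and 3 Kpna6-/- males, all 15 weeks old and all of the C57Bl6/N strain, to which the mutant lines had been backcrossed. Kpna6 encodes importin α7, an adaptor that carries proteins with a nuclear localization signal into the nucleus. The Kpna6 ΔIBB/ΔIBB animals lack exon 2 of the gene, so that translation begins within exon 3 and yields a truncated importin α7 without the domain that binds importin β. Kpna6-/- animals carry a gene trap in intron 1, and the protein is described as lost. The study adds that a testis-specific first exon escapes this trap, so that germ cells of Kpna6-/- testes still make the full-length protein while Sertoli cells do not. Both alleles are constitutive, no animal received a treatment, and the labels do not say whether a sample was 1 testis or a pair, so the spread between samples is that between the deposited libraries.

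Retinoic acid is the active form of vitamin A. Retinol bound to its plasma carrier enters cells through the receptor Stra6, is oxidized to retinal by enzymes such as Rdh10, and then irreversibly to retinoic acid by the retinaldehyde dehydrogenases Aldh1a1 and Aldh1a2, while Cyp26 enzymes hydroxylate retinoic acid and so remove it. Crabp1 binds it in the cytoplasm, and the nuclear receptors Rara and Rarg, paired with RXR proteins, switch genes on when it is bound. In the adult testis a pulse of retinoic acid recurs along the seminiferous epithelium, drives spermatogonia to differentiate and lets germ cells enter meiosis through the induction of Stra8. Sertoli cells are known for Aldh1a1, late spermatocytes for Aldh1a2, and peritubular cells for Cyp26b1.

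The receptors bind DNA at retinoic acid response elements, which are built of half-sites, AGGTCA in the best-known form, AGTTCA in a common variant, GGGTCA or else GGTTCA in further ones, often as a direct repeat with 1, 2 or 5 bases between them. Promoter windows of 250 bases before to 50 bases after a transcription start were taken from RefSeq (GRCm38.p6) and searched for these letters on both strands; matches of the half-sites and of the repeats can overlap. RefSeq windows were found for 8 of the 9 genes, 16 windows in all, and not for Rdh10. No repeat of any of the 3 spacings occurred in them. Such repeats are rare in general, the one with a spacing of 5 occurring in 0.0974% of all 32851 mouse windows. At least 1 half-site was present in 6 of the 16 windows, which belonged to Stra8, Stra6, Rara, Rarg and Aldh1a1, against 43.7% of all windows. Counting every form of half-site, 13.1% of all windows held 2 or more. A Rara window held half-sites 246, 199, 122 and 81 bases before the start, in forms other than AGGTCA. The Stra8 window held AGGTCA at 2 places, 194 and 38 bases before the start, a count of 2 or more copies of this hexamer being present in 1.81% of all windows. It is printed here because Stra8 is the best-known germ cell target of retinoic acid, beside the windows of Cyp26a1 and Rarb, which are textbook targets with a repeat spaced by 5 bases and were measured in the same libraries. Capitals mark the half-sites on either strand, the sequences run 5′ to 3′ on the strand of the gene, and a match is a description of the letters only. The Stra8 stretch is chr6:34920698-34920947 (+), the Cyp26a1 stretch chr19:37697756-37697807 (+) and the Rarb stretch chr14:16575493-16575549 (-), all upstream of a first exon.
Stra8: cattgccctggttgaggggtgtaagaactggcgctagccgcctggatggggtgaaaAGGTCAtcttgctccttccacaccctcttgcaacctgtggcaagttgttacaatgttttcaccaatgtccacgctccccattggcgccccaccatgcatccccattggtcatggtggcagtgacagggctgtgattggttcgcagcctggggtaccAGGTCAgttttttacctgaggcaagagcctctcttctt
Cyp26a1: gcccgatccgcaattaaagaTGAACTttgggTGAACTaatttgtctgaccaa
Rarb: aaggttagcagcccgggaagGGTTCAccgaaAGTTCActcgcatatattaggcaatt

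The 9 libraries held between 24850058 and 31474313 estimated counts on genes. Kpna6 itself stood at 98.3, 163 and 176 TPM in WT, at 32.0, 34.2 and 34.8 TPM in ΔIBB and at 134, 137 and 141 TPM in Kpna6-/- testes, so the gene total was low in the line with the deleted exon and was not low in the line with the gene trap. For the gene trap line the total over all transcripts therefore does not check the label. Markers of Sertoli cells and of all germ cell stages were present in every library. One library, ΔIBB replicate 3, stood apart by epididymal genes: their list summed to 175 TPM there and to between 6.02 and 19.1 TPM in the other 8 libraries, mostly through Spink8 (81.3 TPM) and Crisp1 (77.0 TPM), while the epididymal genes Lcn5 and Ovch2 were at 0 in all 9. Values without this library are given where they differ.

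In the comparison of ΔIBB with WT testes, the retinol receptor Stra6, the binding protein Crabp1 and the receptor Rara were higher, by 1.53-fold, 1.36-fold and 1.26-fold, and the retinol dehydrogenase Rdh10 was lower, at 0.777 times the WT level. The 5 others, among them both retinaldehyde dehydrogenases and Stra8, did not pass the threshold of an adjusted p of 0.05 in edgeR's quasi-likelihood test over all genes. This was 4 of 9 genes, or 44.4%. Of all 18779 genes tested, 36.6% passed, 17.4% as higher and 19.2% as lower, so the share among the 9 genes was near that of the transcriptome. Of all calls 47.6% were higher in ΔIBB, and 70.0% with library size as the only scaling, which moved the median of all genes to 0.11. The median log2 fold change of the 9 genes was 0.30 and that of all genes tested 0.01. Without ΔIBB replicate 3 there were 3 of 9, Stra6, Rara and Stra8, and 6 against Kpna6-/-.

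Between Kpna6-/- and WT testes, 0 of the 9 genes passed the threshold in edgeR's test, and 0 passed in DESeq2. At an unadjusted p below 0.05 there were 2 of 9, Cyp26b1 and Aldh1a2, both lower in Kpna6-/-. In this comparison 1.6% of 18664 genes passed after adjustment and 14.9% had an unadjusted p below 0.05. ΔIBB and Kpna6-/- testes differed from each other in 6 of the 9 genes (66.7%), against 30.3% of 18734 genes tested: Stra6, Crabp1, Cyp26b1, Rara and Aldh1a1 were higher in ΔIBB (13.5% of all genes were), and Rdh10 was lower (16.8%). The comparisons share samples, so that their values for a gene are not independent.

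**Figure D1:**
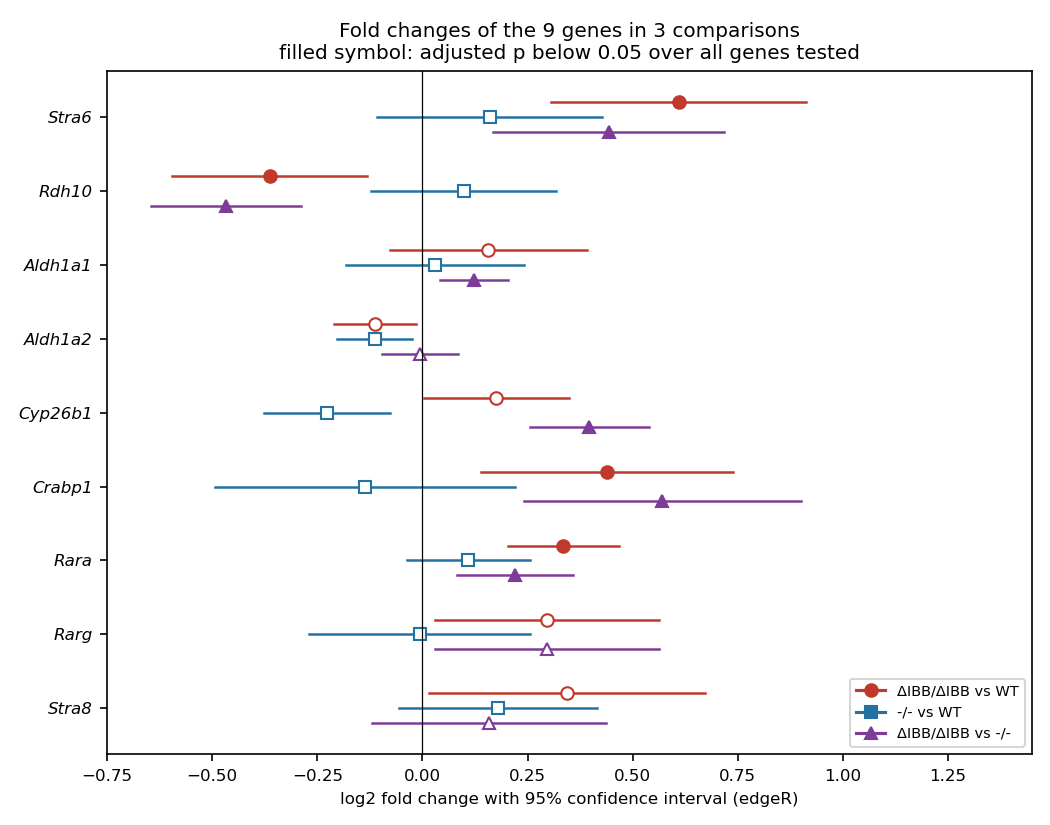
Log2 fold changes of the 9 genes in 3 comparisons (x axis; symbol: edgeR estimate, line: 95% confidence interval, filled: adjusted p below 0.05 over all genes tested). Filled symbols are seen for 4 genes against WT and 6 against Kpna6-/- in ΔIBB testes, and for none of the 9 between Kpna6-/- and WT; Rdh10 is the one gene with filled symbols to the left of 0.

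Marker levels of several cell types differed between the groups. In bulk tissue, fewer cells of a type and less RNA per cell cannot be told apart. All 12 Sertoli cell markers were called higher in ΔIBB than in WT, and their summed level was 531 to 595 TPM in WT, 940 to 1073 TPM in ΔIBB and 659 to 687 TPM in Kpna6-/- testes, where 2 of 12 were called higher than in WT. The study itself counted fewer Sertoli cells per tubule in adult testes of both mutant lines. Its real-time PCR of adult testes showed no significant difference for Wt1, Rhox5 and Cldn11, which belong to this list. The 10 spermatogonial markers summed to 73.2 to 88.7 TPM in WT, 96.1 to 100.2 TPM in ΔIBB and 75.0 to 82.6 TPM in Kpna6-/-, with 3 called higher and 1 lower against WT in ΔIBB. Of the elongating spermatid markers, 9 of 9 were lower in ΔIBB than in WT, with sums of 69363 to 79546 TPM in WT and 57740 to 65979 TPM in the mutant, and 7 of 8 round spermatid markers were lower too. Macrophage markers summed to 48.8 to 63.1 TPM in WT and 75.4 to 83.7 TPM in ΔIBB, with 4 of 9 called higher. Of the peritubular and endothelial markers, 4 of 10 were called higher and 1 lower in ΔIBB than in WT, with a median log2 fold change of 0.28. Their sum, 398 to 437 TPM in WT and 374 to 398 TPM in ΔIBB, lay mostly on Actg2 (331 to 364 and 272 to 291 TPM), whereas Acta2 stood at 31.6 to 33.2 TPM in WT and 51.9 to 58.3 TPM in ΔIBB. The pachytene spermatocyte markers summed to 7189 to 7701 and 7680 to 7859 TPM, with 1 of 8 called lower. The sums of all lists are in TPM, whereas the calls rest on normalized counts. Between ΔIBB and WT, the median log2 fold change of all genes was 0.11 on log2(TPM + 1) and 0.01 on normalized counts. Of all genes tested, 36.6% were called in ΔIBB against WT, 17.4% as higher and 19.2% as lower. The shares of the spermatogonial (40%) and macrophage (44.4%) lists were near 36.6%, and that of the peritubular and endothelial list was 50%. Both directions together therefore set the spermatogonial and macrophage lists little apart from the transcriptome. By direction, all 4 macrophage calls were higher, 44.4% of that list against 17.4% of all genes. The part of the marker shifts in the values of the 9 genes was not tested.

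**Figure D2:**
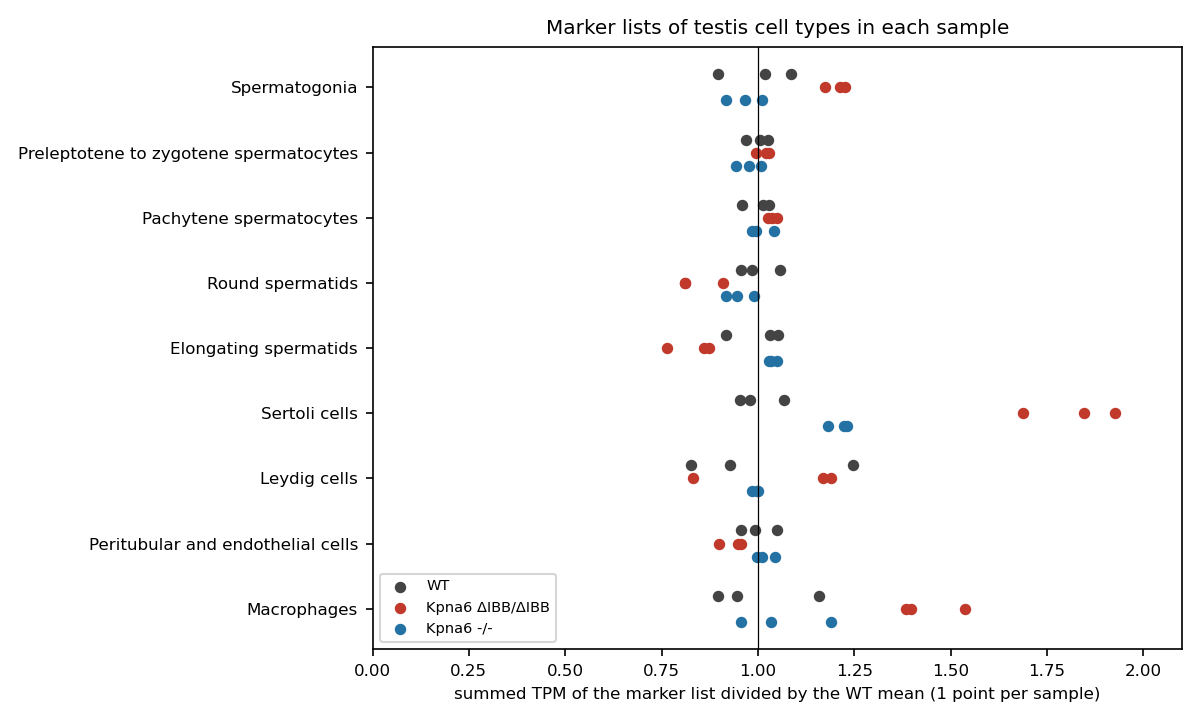
Summed TPM of 9 marker lists in each library, divided by the mean of the WT libraries (x axis; 1 point per sample, colour by genotype). The ΔIBB points of the Sertoli cell list lie at 1.69 to 1.93 times the WT mean and those of the elongating spermatid list at 0.764 to 0.873 times.

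In WT testes the retinaldehyde dehydrogenases were the most abundant of the 9 transcripts by TPM, a level per length that can be compared between genes. Aldh1a1 stood at 121 ± 23.2 TPM and Aldh1a2 at 61.0 ± 0.870 TPM (SD, n = 3). Rara followed with 17.2 ± 2.26 TPM, Cyp26b1 with 12.4 ± 0.968 TPM, Stra8 with 11.6 ± 1.89 TPM, Rdh10 with 8.24 ± 1.11 TPM, Crabp1 with 6.40 ± 0.0850 TPM, Rarg with 5.18 ± 1.21 TPM and Stra6 with 5.06 ± 0.523 TPM. Among neighbours in this order, the ranges of the 3 WT samples overlapped for Cyp26b1 and Stra8 and for Rarg and Stra6, and were separate for the other pairs. Short annotated transcripts, of fewer than 500 bases, carried 55.4% of the Rarg, 41.4% of the Stra6 and 35.0% of the Rara TPM in WT. With transcripts of 500 bases or more alone, WT Rara stood at 11.2 TPM, Stra6 at 2.97 TPM and Rarg at 2.31 TPM, and Cyp26b1 came before Rara. In both mutants Aldh1a1 and Aldh1a2 kept the first and second place, at 147 and 61.6 TPM in ΔIBB and 122 and 56.0 TPM in Kpna6-/- testes.

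**Figure D3:**
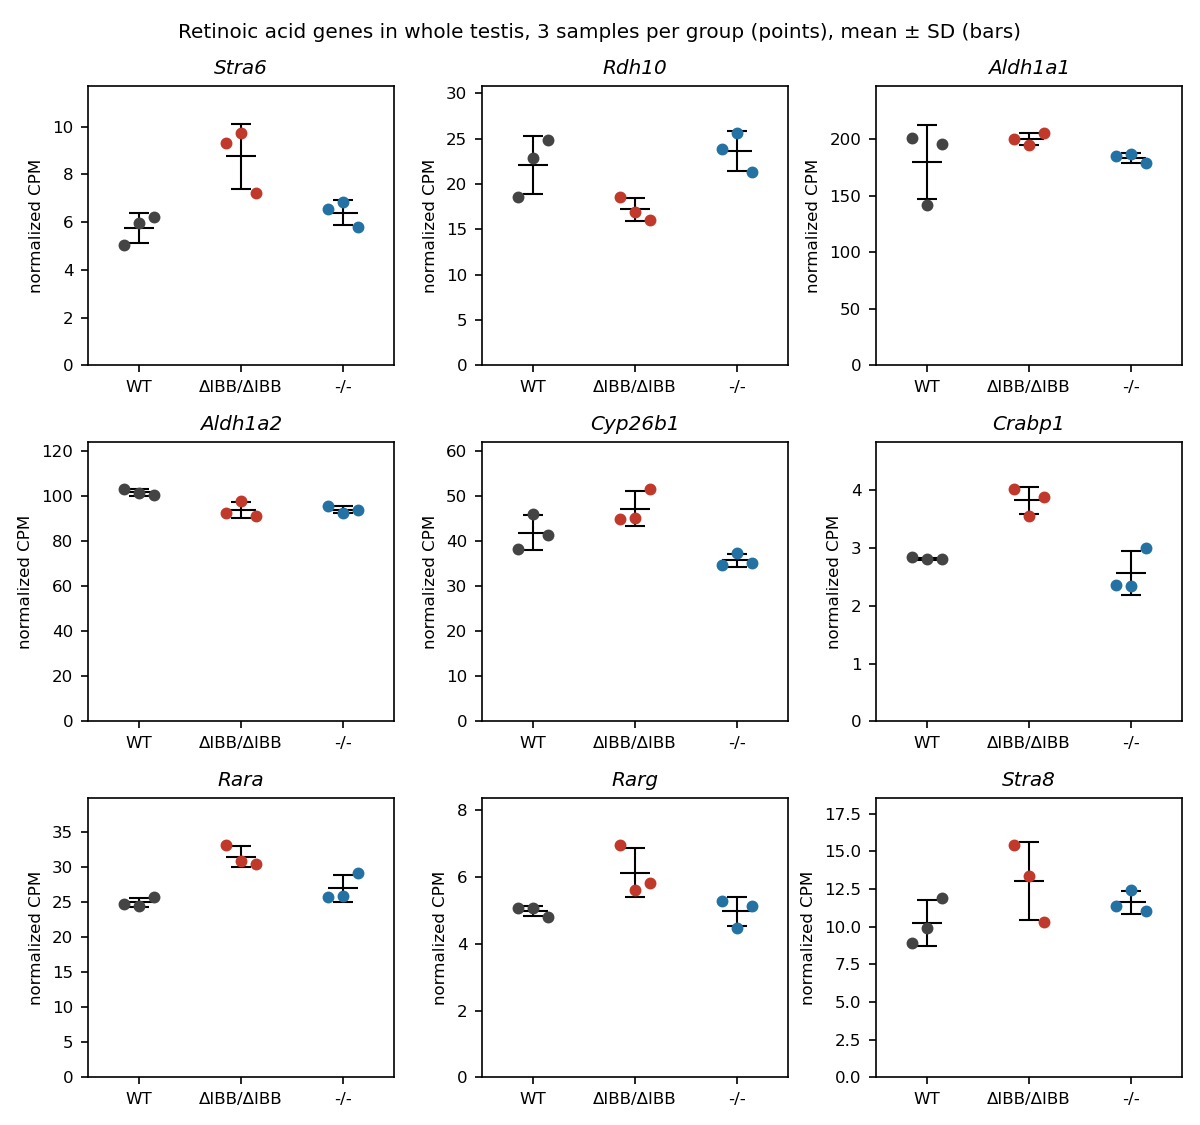
Normalized CPM of the 9 genes in each library (y axis from 0; points: 3 samples per group, bars: mean ± SD). The ΔIBB points lie above all WT points for Stra6, Crabp1, Rara and Rarg and below them for Rdh10 and Aldh1a2, and the groups overlap for Aldh1a1, Cyp26b1 and Stra8.

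Stra6, the membrane receptor through which retinol is taken up from its plasma carrier, is encoded at chr9:58063788-58153996 (+, GRCm38). Levels are given here as counts scaled to the TMM-corrected library size (CPM), with all 9 libraries normalized together. Each comparison normalized its own 6 samples, so the CPM are not exactly on the tested scale. Stra6 stood at 5.03, 5.96 and 6.23 CPM in WT, 9.31, 9.75 and 7.21 in ΔIBB and 6.56, 6.85 and 5.81 in Kpna6-/- testes. Every ΔIBB sample was above every other sample, and WT and Kpna6-/- overlapped. The log2 fold change against WT was 0.61 with an SE of 0.14 (adjusted p = 0.00563), and against Kpna6-/- 0.44 with an SE of 0.13 (adjusted p = 0.0197). Between Kpna6-/- and WT it was 0.16, with a 95% confidence interval from -0.11 to 0.43. Both calls were lost on TPM: with length-scaled TPM counts the log2 fold change was 0.08 against WT (adjusted p = 0.752) and 0.10 against Kpna6-/- (adjusted p = 0.689), and on log2(TPM + 1) it was 0.16 (adjusted p = 0.415) and 0.19 (adjusted p = 0.324). The call against Kpna6-/- was also lost without ΔIBB replicate 1 or 2 (adjusted p = 0.0655 and 0.0881) and without Kpna6-/- replicate 3 (adjusted p = 0.0779).

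The group means of Stra6-203 and Stra6-202 moved in opposite directions between WT and ΔIBB, though neither difference passed a test. Stra6-203, an annotated coding transcript of 398 bases, stood at 2.02 ± 0.547 TPM in WT and 0.639 ± 0.603 TPM in ΔIBB testes (SD, n = 3). The long Stra6-202, of 2725 bases, stood at 0.881 ± 0.795 and 1.92 ± 1.17 TPM. In two-sided exact permutation tests, Stra6-203 had a p of 0.1, the smallest possible with 3 samples against 3 (adjusted p = 0.3). Stra6-202 had a p of 0.3 (adjusted p = 0.487). The gene held 149 to 310 counts per library, divided among 14 annotated transcripts. With transcripts of 500 bases or more alone, Stra6 TPM was 2.97 in WT, 4.92 in ΔIBB and 3.85 in Kpna6-/- testes.

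Rdh10, which oxidizes retinol to retinal, lies at chr1:16105774-16133734 (+). Its CPM were 18.6, 22.9 and 24.8 in WT, 18.6, 17.0 and 16.1 in ΔIBB and 23.9, 25.7 and 21.3 in Kpna6-/- testes. The highest ΔIBB sample and the lowest WT sample all but coincided, whereas the Kpna6-/- samples were clearly apart from the former. Against WT the log2 fold change was -0.36 with an SE of 0.10 (adjusted p = 0.0196), and against Kpna6-/- it was -0.47 with an SE of 0.08 (adjusted p = 0.00117). Kpna6-/- and WT differed by 0.10 with a 95% confidence interval from -0.12 to 0.32. The call against WT was lost without WT replicate 2 or 3, without ΔIBB replicate 2 or 3, with library size as the only scaling (log2 fold change -0.26, adjusted p = 0.0725) and on log2(TPM + 1) (-0.20, adjusted p = 0.203). The call against Kpna6-/- was kept when any sample was left out and lost on log2(TPM + 1) (adjusted p = 0.0696). Over these omissions the fold change against WT ranged from -0.47 to -0.27.

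Aldh1a1, the retinaldehyde dehydrogenase known from Sertoli cells, lies at chr19:20492715-20643465 (+). In WT its CPM were 201, 142 and 196, in ΔIBB 199.9, 194 and 206, and in Kpna6-/- 185, 186 and 178.5. WT replicate 2 stood well below all other samples, and the remaining WT samples lay within the range of the ΔIBB samples. The log2 fold change of ΔIBB against WT was 0.16 with a 95% confidence interval from -0.08 to 0.39 (adjusted p = 0.278), and without WT replicate 2 it was 0.01. On TPM the ΔIBB samples (143.9 to 149.7) lay above all WT samples (94.05 to 134.5). Over the 11 alternatives the log2 fold change ranged from 0.15 to 0.30, and 0 of them called it. Beside this, all 12 of the Sertoli cell markers were called higher, with a median of 0.57, whereas 17.4% of all genes were called higher. The mutants differed by 0.12 with an SE of 0.04 (adjusted p = 0.0272), or 1.09-fold, a call that was lost when ΔIBB replicate 3 or any 1 Kpna6-/- sample was left out and when all 9 samples were fitted together (adjusted p = 0.354). Aldh1a7, its closest neighbour in sequence, shares 88.9% of bases over an aligned stretch of 2069 and at most 92.8% over 429. Aldh1a7 stood at 5.26 to 8.69 TPM, and counting both genes as one changed no call of Aldh1a1.

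Aldh1a2, the retinaldehyde dehydrogenase of late spermatocytes, lies at chr9:71215789-71296243 (+). It stood at 103, 101 and 100.2 CPM in WT, 92.5, 97.9 and 91.1 in ΔIBB and 95.6, 92.5 and 93.7 in Kpna6-/- testes. All 6 mutant samples were below all 3 WT samples, and the mutants overlapped. The log2 fold changes against WT were -0.11 in both lines, with SEs of 0.04 and adjusted p of 0.0698 in ΔIBB and 0.220 in Kpna6-/-, so neither passed. The value for ΔIBB passed with all 9 samples in 1 fit (-0.11, adjusted p = 0.0408), and on log2(TPM + 1) it was 0.01 (adjusted p = 0.848). The share of Aldh1a2 in the summed TPM of both dehydrogenases was between 28.4% and 31.9% in 8 libraries and 38.9% in WT replicate 2, the library in which Aldh1a1 was low.

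Cyp26b1, the cytochrome P450 that clears retinoic acid in the testis, lies at chr6:84571414-84593908 (-). Its CPM were 38.3, 46.1 and 41.4 in WT, 45.0, 45.1 and 51.7 in ΔIBB and 34.8, 37.5 and 35.1 in Kpna6-/- testes. The 3 Kpna6-/- samples were the lowest of the 9, and WT lay between the mutants with an overlap towards ΔIBB. The mutants differed by a log2 fold change of 0.40 with an SE of 0.06 (adjusted p = 0.000745), 1.32-fold, and this call was kept in every alternative and with every sample left out (0.33 without ΔIBB replicate 3, the library with epididymal genes and the highest Cyp26b1). Against WT the values were 0.18 (95% confidence interval 0.00387 to 0.35, adjusted p = 0.102) in ΔIBB and -0.23 (-0.38 to -0.08, adjusted p = 0.134) in Kpna6-/-, neither of which passed. Leaving out WT replicate 1 brought the Kpna6-/- value to -0.29 (adjusted p = 0.0365), and leaving out WT replicate 2 the ΔIBB value to 0.25 (adjusted p = 0.0430). Without ΔIBB replicate 3 the latter was 0.11 (adjusted p = 0.301), whereas it passed with library size as the only scaling (0.28, adjusted p = 0.0144), on log2(TPM + 1) (0.29, adjusted p = 0.0405) and on log2(TPM + 0.1) (0.31, adjusted p = 0.0390). Beside this, 4 of the 10 peritubular and endothelial markers were called higher and 1 lower in ΔIBB against either group. This was 50% each time, against 36.6% of all genes for WT and 30.3% for Kpna6-/-. The part of these markers in the Cyp26b1 values was not tested.

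Nearly all Cyp26b1 counts lay on transcripts that start inside the gene. Cyp26b1-205 starts at chr6:84587680 and stood at 7.79 TPM in WT, 8.87 TPM in ΔIBB and 6.59 TPM in Kpna6-/- testes, and Cyp26b1-204, which starts at chr6:84588638, stood at 4.37, 6.01 and 3.64 TPM. Cyp26b1-201 and Cyp26b1-202, which start furthest upstream, at chr6:84593746 and chr6:84593908, stood at no more than 0.135 TPM in any library.

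Crabp1, which binds retinoic acid in the cytoplasm, lies at chr9:54764748-54773110 (+) and rested on 65 to 123 counts per library, the fewest of the 9 genes. It stood at 2.83, 2.80 and 2.80 CPM in WT, 4.02, 3.56 and 3.87 in ΔIBB and 2.36, 2.34 and 3.00 in Kpna6-/- testes. All ΔIBB samples were above all others. The log2 fold change was 0.44 with an SE of 0.14 against WT (adjusted p = 0.0264) and 0.57 with an SE of 0.15 against Kpna6-/- (adjusted p = 0.0137). Kpna6-/- and WT differed by -0.14 (95% confidence interval -0.49 to 0.22). DESeq2 did not call the difference from WT (adjusted p = 0.0985), nor did edgeR without WT replicate 2 or 3 or without ΔIBB replicate 1 or 3 (adjusted p between 0.0624 and 0.0813); the difference from Kpna6-/- was lost without Kpna6-/- replicate 1 or 2.

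Rara, the retinoic acid receptor of Sertoli cells and germ cells, lies at chr11:98927818-98974942 (+). Its CPM were 24.8, 24.5 and 25.7 in WT, 33.3, 31.0 and 30.4 in ΔIBB and 25.8, 25.9 and 29.2 in Kpna6-/- testes. The 3 groups did not overlap, with WT the lowest and ΔIBB the highest. Against WT, the log2 fold change of ΔIBB was 0.34 with an SE of 0.06 (adjusted p = 0.00143), and it remained called in all 10 alternatives and with each of the 6 samples left out. The value for Kpna6-/- was 0.11 (95% confidence interval -0.04 to 0.26, adjusted p = 0.499). Between the mutants it was 0.22 with an SE of 0.06 (adjusted p = 0.0212), and this call was lost without ΔIBB replicate 1 or 2 and without Kpna6-/- replicate 1 or 2 (adjusted p between 0.0501 and 0.0868), and with TPM-based fits.

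Rarg, the receptor known from spermatogonia, lies at chr15:102234938-102257517 (-). It stood at 5.06, 5.07 and 4.81 CPM in WT, 6.97, 5.60 and 5.82 in ΔIBB and 5.29, 4.48 and 5.14 in Kpna6-/- testes. Every ΔIBB sample was above every other, yet the log2 fold change of 0.30 against WT (95% confidence interval 0.03 to 0.56) had an adjusted p of 0.0775, and the one of 0.30 against Kpna6-/- an adjusted p of 0.0894. Neither passed, except with library size as the only scaling (adjusted p = 0.0246 and 0.0262). Kpna6-/- and WT differed by -0.01 (-0.27 to 0.26). Among the long transcripts of Rarg, Rarg-202 of 2718 bases, which starts inside the gene, stood at 1.76 ± 0.0391 TPM in WT, 2.22 ± 0.0693 TPM in ΔIBB and 1.52 ± 0.188 TPM in Kpna6-/- testes (SD, n = 3), with no overlap between the 3 groups.

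**Figure D4:**
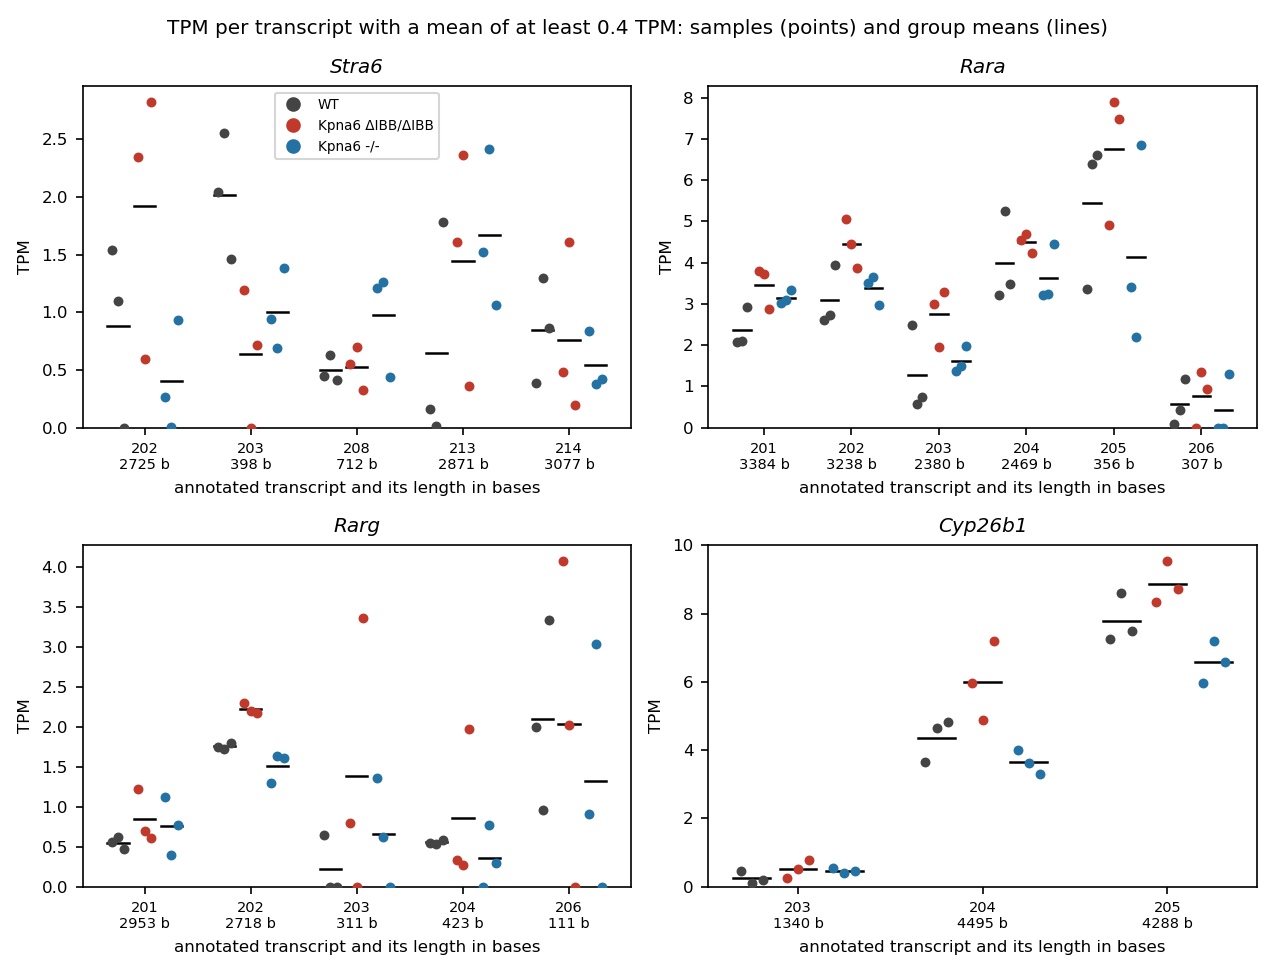
TPM of the annotated transcripts of Stra6, Rara, Rarg and Cyp26b1 with a mean of at least 0.4 TPM (y axis; x axis: transcript number and length in bases; points: samples, lines: group means). The spread between samples of one group is widest for the short transcripts, such as Rarg-206 of 111 bases and Rara-205 of 356 bases, and narrow for Rarg-202.

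Over the 20 transcripts of the 9 genes with enough signal, 60 two-sided exact permutation tests of TPM were made. With 3 samples against 3 the smallest p is 0.1, which 20 tests reached, and the lowest adjusted p was 0.3, so no transcript could pass. Stra6-203 and Crabp1-201 were among those at the smallest p between ΔIBB and WT, and Rarg-202 was so in all 3 comparisons.

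Stra8, the retinoic acid target needed for meiotic entry whose promoter is printed above, lies at chr6:34920163-34939344 (+). It stood at 8.94, 9.92 and 11.9 CPM in WT, 15.4, 13.3 and 10.3 in ΔIBB and 11.3, 12.4 and 11.0 in Kpna6-/- testes. The lowest ΔIBB sample, replicate 3, lay within the WT range and the other ΔIBB samples above it. The log2 fold change against WT was 0.34 with an SE of 0.15 (95% confidence interval 0.02 to 0.67, adjusted p = 0.0947). Without ΔIBB replicate 3, the library with epididymal genes, it was 0.49 (adjusted p = 0.0132), and against Kpna6-/- 0.31 (adjusted p = 0.0308) in place of 0.16 (adjusted p = 0.390). It also passed against WT with library size as the only scaling (adjusted p = 0.0374) and without WT replicate 3 (adjusted p = 0.04996). With each of the 6 samples left out in turn, the Stra8 value against WT ranged from 0.2125 to 0.4935 and passed in 2 fits. Against Kpna6-/- it ranged from 0.0271 to 0.3052 and passed in 1 fit. Whether Stra8 was called therefore depended on which sample was left out. Most of the Stra8 signal lay on Stra8-203, of 1455 bases, with 7.79 TPM in WT, 10.0 TPM in ΔIBB and 8.46 TPM in Kpna6-/- testes. Meiosin (listed as Gm4969), the partner of Stra8 at meiotic entry, stood at 11.4, 14.7 and 12.0 TPM in the 3 groups and was not called in any comparison. The 10 markers of preleptotene to zygotene spermatocytes, the stage at which Stra8 acts, summed to 417 to 443 TPM in WT, 429 to 443 TPM in ΔIBB and 406 to 435 TPM in Kpna6-/- testes. Under these sums 2 of the 10 were called higher and 4 lower in ΔIBB than in WT, with a median log2 fold change of -0.12. The called share was 60%, against 36.6% of all genes tested, 17.4% as higher and 19.2% as lower.

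The remaining retinoid genes were read from a list of 47, of which 44 were tested against WT in ΔIBB: 15 were higher and 8 lower, together 52.3%, against 36.6% of all genes; their median stood at 0.04 on the log2 scale. Against WT, 1 of 45 passed in Kpna6-/-, as lower. Between the mutants 14 of 46 were higher and 5 lower in ΔIBB, 41.3% against 30.3%. Those called in any comparison are named here if they reached a group mean of 1 TPM.

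Of the genes for uptake and storage, 2 of 6 tested were higher and 2 lower in ΔIBB than in WT. Together this was 66.7%, against 36.6% of all genes tested. Bco1, which cleaves beta-carotene to retinal, stood at 18.9 to 26.0 TPM in WT, 8.60 to 11.8 TPM in ΔIBB and 15.9 to 17.6 TPM in Kpna6-/- testes. Its log2 fold change was -1.30 with an SE of 0.13 in ΔIBB (adjusted p = 4.02e-05) and -0.40 with an SE of 0.09 in Kpna6-/- (adjusted p = 0.0482), and it was the one gene of the list called in the latter. That call lay at the threshold. It was lost with the stricter filter, all 9 samples in 1 fit, library size as the only scaling, length-scaled TPM and both fits on log2 TPM. A promoter window of Bco1 contains AGGTCAAAGGTCA, a repeat with 1 base between the half-sites, which 0.222% of all windows hold. This is a match of letters only, and a link to the Bco1 values was not tested. Lipe, a lipase that also frees retinol from its esters, was lower by -0.50 in ΔIBB. Retsat, a retinol saturase, was higher by 0.43 (adjusted p = 0.0436 in edgeR), though samples of the 2 groups overlapped. In Kpna6-/- against WT, Retsat was higher by 0.52 and was not called (adjusted p = 0.0840). Rbp4, the plasma carrier of retinol, was not called against WT (0.24, adjusted p = 0.165) and was higher by 0.50 in ΔIBB than in Kpna6-/- testes.

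Of the retinol and retinal dehydrogenases other than Rdh10, 6 of 14 were higher and 1 lower in ΔIBB than in WT, 7 did not pass, and the median log2 fold change was 0.03. The called share was 50%, against 36.6% of all genes tested. The alcohol dehydrogenase Adh1 was higher by 0.78 (SE 0.16), Dhrs7 by 0.72 (SE 0.13), Adh5 by 0.54 (SE 0.10) and Rdh13 by 0.53 (SE 0.15). Smaller differences were called for Rdh14 and Akr1b3, both 0.23, and Rdh11, second to Akr1b3 in this role with a WT mean of 135 TPM, was lower by -0.12. The Rdh11 call lay near the threshold (adjusted p = 0.0416 in edgeR), and the ΔIBB mean was 136 TPM. Aldh1a3, the third retinaldehyde dehydrogenase, stood at 1.66 to 1.99 TPM in WT and 3.64 to 4.52 TPM in ΔIBB testes, a log2 fold change of 0.98 with an SE of 0.13 (adjusted p = 0.000247). It stayed far below Aldh1a1 and Aldh1a2 in level. Aldh8a1, which can oxidize 9-cis-retinal, was lower by -0.61.

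Among binding proteins and receptors, Fabp5, a fatty acid-binding protein that can also carry retinoic acid, was higher by 1.01 with an SE of 0.13 (7.30 to 10.6 TPM in WT, 19.2 to 23.3 TPM in ΔIBB). Of the RXR partners, Rxrb was higher by 0.27 and Rxra lower by -0.31. The corepressor Ncor1 was lower by -0.22 and the coactivator Ncoa1 by -0.23. Rarb, whose repeat is printed above, stood at only 0.226 to 0.564 TPM in WT and had a log2 fold change of -0.50 (adjusted p = 0.351).

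Calls among genes reported to respond to retinoic acid went in both directions, as they did over all genes. Cyp26a1, which holds the printed repeat, stood at 1.09 to 1.55 TPM in WT and 0.872 to 1.03 TPM in ΔIBB testes, with a log2 fold change of -0.53 (adjusted p = 0.0982) that did not pass. Of the 9 germ cell and other responding genes listed, 3 were higher in ΔIBB than in WT and 1 was lower. Together this was 44.4%, against 36.6% of all genes tested, 17.4% as higher and 19.2% as lower. Tgm2, a transglutaminase, was higher by 0.85 with an SE of 0.12, Kit, the receptor of differentiating spermatogonia, by 0.29 and the spermatogonial factor Sohlh2 by 0.29. Rec8, a meiotic cohesin subunit, was lower by -0.29. Sall4 was called between the mutants only, with 0.43 (adjusted p = 0.0479), beside 0.34 against WT (adjusted p = 0.107).

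**Figure D5:**
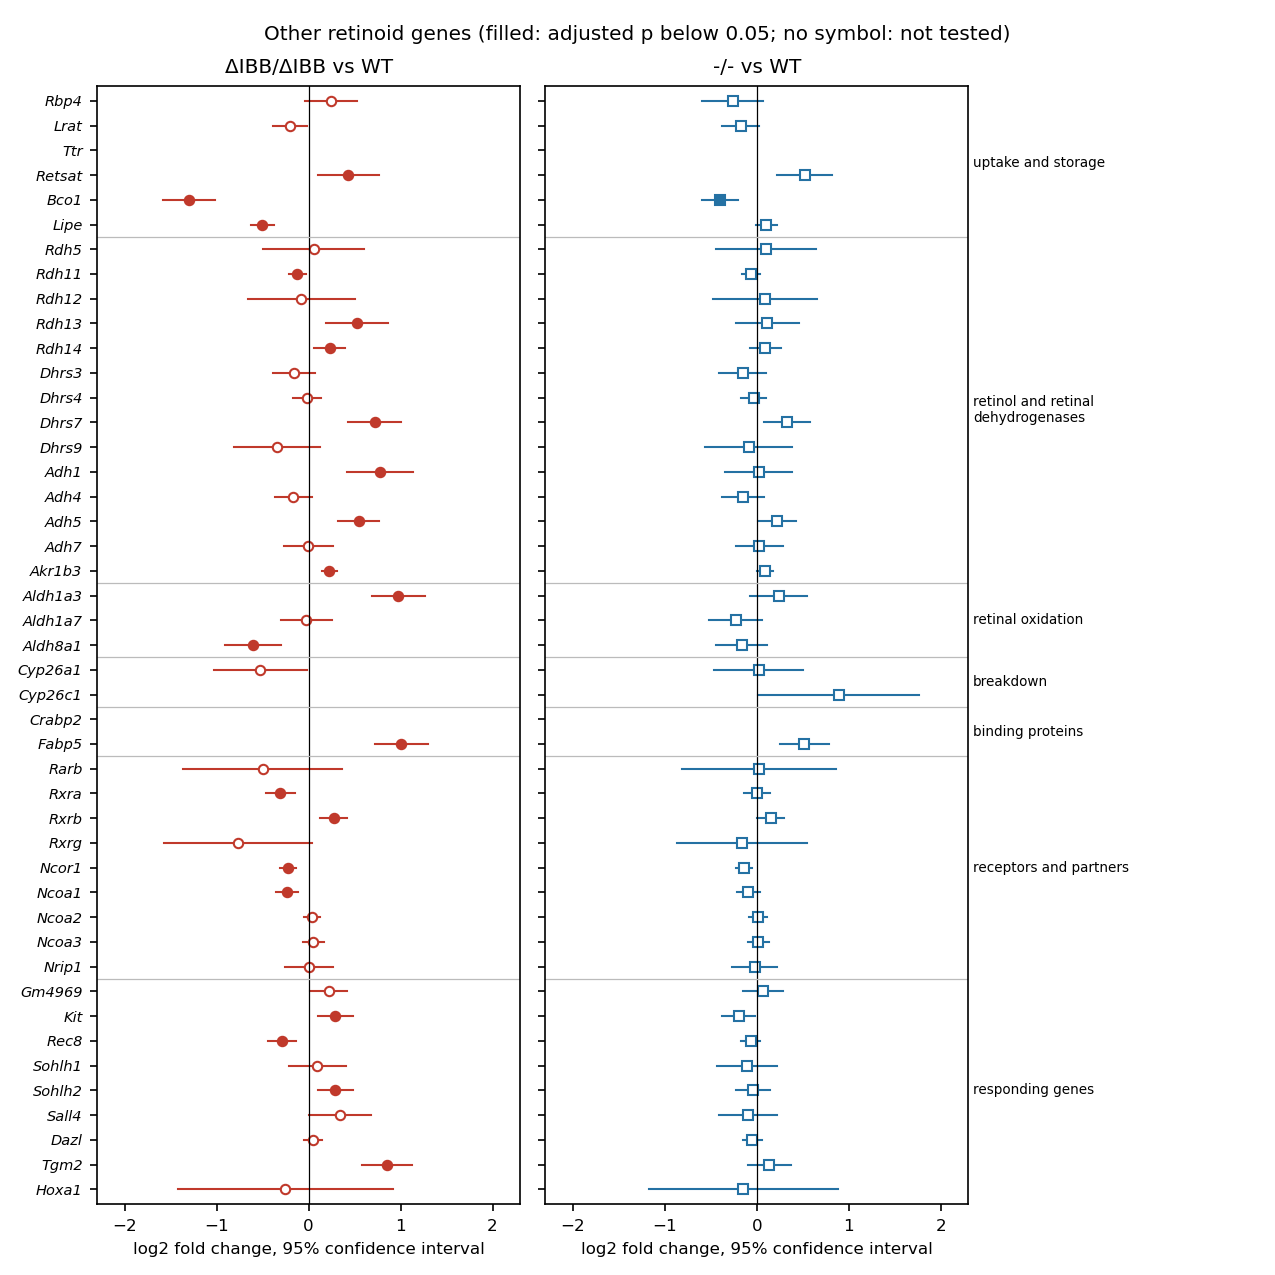
Log2 fold changes of 45 further retinoid genes by role (x axis; symbol: edgeR estimate, line: 95% confidence interval, filled: adjusted p below 0.05), for ΔIBB against WT (left) and Kpna6-/- against WT (right). Filled symbols lie on both sides of 0 in most roles on the left, with Bco1 at -1.30 and Fabp5 at 1.01 as the outermost filled ones, and Bco1 alone is filled on the right.

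The genes most like each of the 9 in profile were sought by Pearson's r of log2(TPM + 1) over the 9 samples among 16693 genes; the points share the group differences and the libraries, and r is a description. Cyp26b1 was most like Tpst1 (r = 0.99), Crabp1 like Tgfb1i1 (0.98), Aldh1a2 like Tmem214 (0.98) and Stra8 like Trappc6b (0.97). Rdh10 was nearest to Mgat4e (0.97), Aldh1a1 to Spred2 (0.97), Rara to Lrrk1 (0.96), Rarg to Gm6754 (0.96) and Stra6 to Mybl1 (0.93). The second in rank were Mkrn1 for Cyp26b1, Zfp160 for Crabp1, Carnmt1 for Aldh1a2, Srsf3 for Stra8, Gm44487 for Rdh10, Zrsr2 for Rara, 5730455P16Rik for Rarg and Hhex for Stra6, with r from 0.93 to 0.98. None of the genes named here was a retinoid gene of the list.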

How the data were processed

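RNA of 9 whole testes was analysed, 3 per genotype. Per the methods and labels, poly(A) libraries (150 base pairs, paired ends) were assigned to mm10 transcripts with kallisto, version 0.45 in the submitters' processing notes, whereas the study's methods give a later one. The authors deposited an estimated count per transcript, not normalized between samples, and TPM, a level per transcript length with an equal total for every library. The kit as described does not mark strand; no exon of another annotated gene overlaps an exon of the 9 genes.

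Of 96626 transcripts, 95213 were assigned to genes by GENCODE M21 (GRCm38) and 1413, not listed there, were left out; 99.5% of counts were kept. Both values were summed per gene, and counts were rounded. In place of sleuth, which was used in the study, each pair of groups was compared with filterByExpr, TMM and the quasi-likelihood test of edgeR 4.0.16 (R 4.3.3) on its 6 samples, with Benjamini-Hochberg adjustment over all genes tested. On simulated data with 200 genes changed by a log2 of 1 among 18779 (Kpna6 ΔIBB/ΔIBB against WT), edgeR recovered 152 and called 17 others. As many genes were raised as lowered there. In the data 36.6% of genes were called, and the largest change of the 9 genes was 0.61. The simulation therefore does not give the rate of missed or false calls for them. With 65 to 6532 counts per library, counting error is largest for Crabp1. Alternatives were DESeq2 1.42.0, other filters, the replicate block, all 9 samples together, library size only, length-scaled TPM, limma 3.58.1 on log2(TPM + 1) and log2(TPM + 0.1) for genes of at least 1 TPM in 3 samples, Aldh1a1 with Aldh1a7, each sample left out and, added after the data were seen, transcripts of 500 bases or more only. Similar sequences were sought with blastn 2.17.0+ (at least 100 bases, 90% identity).

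The 9 genes, the 47 others and the marker lists were chosen with earlier results of these data known. All 9 genes are named, with other retinoid genes called in any comparison at 1 TPM or more, the 2 genes nearest in profile, and Kpna6; others named for their role (Rarb, Cyp26a1, Gm4969, Aldh1a7) were added after their values were seen. A few genes that this rule names are not reported here. The seminal vesicle list summed to 10.2 to 12.6 TPM in WT, 25.3 to 33.6 in Kpna6 ΔIBB/ΔIBB and 18.1 to 23.5 in Kpna6-/-, the Leydig cell list to 2133 to 3221, 2146 to 3076 and 2541 to 2585 TPM.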

Additional observations from a re-analysis of the deposited data

Results flagged for a closer look

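In the direct comparison of ΔIBB with Kpna6-/- testes, 6 of the 9 genes differed between the mutant lines (edgeR, adjusted p below 0.05). The log2 difference was 0.44 for Stra6, 0.57 for Crabp1, 0.40 for Cyp26b1, 0.22 for Rara and 0.12 for Aldh1a1, all higher in ΔIBB, and -0.47 for Rdh10. In this comparison 30.3% of all genes passed. Cyp26b1 and Aldh1a1 were not called against WT in either line, and the Aldh1a1 call between the mutants was lost in 4 of the 6 fits that left out a single sample.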

How the results depend on the processing

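Leaving aside single samples left out, 76 of the 91 alternative values of the 9 genes kept their direction and side of the threshold for ΔIBB against WT, 83 for Kpna6-/- against WT and 75 for ΔIBB against Kpna6-/-. With library size as the only scaling, the median log2 fold change of all genes moved from 0.01 to 0.11 against WT and from 0.00494 to 0.10 against Kpna6-/-, and the share of calls that were higher in ΔIBB from 47.6% to 70.0% and from 44.5% to 71.0%; on log2(TPM + 1) these shares were 71.0% and 74.2%, and for Kpna6-/- against WT 43.3% in place of 55.5%.

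Of the 9 genes, 3 in place of 6 differed between the mutants on log2(TPM + 1) and on log2(TPM + 0.1), and 3 to 6 when a sample was left out (3 without Kpna6-/- replicate 1 or 2). Against WT, 3 to 4 were called in ΔIBB and 0 to 1 in Kpna6-/- when a sample was left out, the 1 being Cyp26b1 without WT replicate 1. Of the other retinoid genes, 1 was called in Kpna6-/- against WT; it was 2 with DESeq2 and with the replicate block, 3 without a filter, 0 with the stricter filter (5 counts in 0.47 of the samples), all 9 samples in 1 fit, library size only, length-scaled TPM and both fits on log2 TPM, and 0 to 5 with a sample left out (5 without WT replicate 1).

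Signs turned only in values that were not called. Aldh1a2 in ΔIBB against WT was 0.0141 and 0.0143 on log2(TPM + 1) and log2(TPM + 0.1). Against Kpna6-/- it was 0.0051 without a filter, 0.001 with the stricter filter, 0.0946 with library size only, 0.0083 with length-scaled TPM, 0.1346 and 0.1366 on log2 TPM, and -0.034 to 0.0197 with a sample left out. In Kpna6-/- against WT, Stra6 was -0.0261 with length-scaled TPM and -0.0303 and -0.0356 on log2 TPM, Rara -0.0477, -0.074 and -0.0788, and Rarg 0.0012 with library size only and 0.0002 with long transcripts only. With a sample left out, Rdh10 ranged from -0.0123 to 0.19, Aldh1a1 from -0.12 to 0.12 and Rarg from -0.0533 to 0.0641. The cause was not tested.

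The replicate block changed no call of the 9 genes in any comparison (4, 0 and 6 called). Same-numbered samples did not deviate together in every pair (correlations from -0.05 to 0.11), so the numbers were not taken to pair the samples.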
